A study of Mus musculus with 24 samples.

Results

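Prolactin and growth hormone receptors carry no kinase of their own and signal through JAK2, which phosphorylates STAT5A and STAT5B and, through related receptors, STAT3. SOCS proteins are made in response and damp the same receptors, so Cish and Socs2 are widely used as readouts of STAT5 activity and Socs3 as a readout of STAT3 activity. In the mammary gland STAT5 is required for alveolar differentiation and milk protein transcription, while STAT3 drives cell death and remodelling when milking stops.

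The genes examined were chosen by symbol and not by a rule on measured values, though with earlier results of these data known. These 9 of the 24007 genes in the deposited table are the transcription factors Stat5a, Stat5b and Stat3, the kinase Jak2, the feedback inhibitors Socs1, Socs2, Socs3 and Cish, and the growth hormone receptor Ghr. Prlr, the prolactin receptor itself, is not among them and is given only beside them. The RNA came from 6 groups of sorted mammary epithelial cells: basal, luminal progenitor (LP) and mature luminal (ML) cells, each from wild-type (WT) mice and from mice with an Id4 knockout (KO). The Id4 gene encodes a helix-loop-helix factor without a DNA-binding region, which holds its partners off DNA. All mice were FVB/N females of 10 to 12 weeks in estrus, and the labels name no treatment. Each replicate pooled the glands of 4 to 8 mice, and each group had 4 replicates, which made 24 libraries. Live cells negative for lineage markers were sorted on CD24, CD29 and CD61, with CD61 separating LP from ML cells. The knockout mice are described only by reference to an earlier publication, and which part of Id4 they lack, and in which cells, is not stated in the labels.

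The members lie on 6 autosomes of mm10, and 4 of them share chromosome 11. Stat5b (ENSMUSG00000020919, 100780731 to 100850724, minus strand) and Stat5a (ENSMUSG00000004043, 100859351 to 100885169, plus strand) are neighbours that start 8626 bases apart and point away from each other. Stat3 (ENSMUSG00000004040, 100885098 to 100939540, minus strand) meets Stat5a tail to tail, and their annotated ends overlap by 72 bases. Stat5a and Stat5b are near-identical copies, so the deposited estimated counts divide shared reads between them and the value of each is uncertain. Socs3 (ENSMUSG00000053113) lies further along chromosome 11, from 117966079 to 117970047 on the minus strand. Cish (ENSMUSG00000032578) is on chromosome 9 from 107296026 to 107302784, plus strand, and Socs2 (ENSMUSG00000020027) on chromosome 10 from 95385362 to 95417180, minus strand. Socs1 (ENSMUSG00000038037) is on chromosome 16 from 10782240 to 10785536 and Ghr (ENSMUSG00000055737) on chromosome 15 from 3317760 to 3583492, both on the minus strand. Jak2 (ENSMUSG00000024789) is on chromosome 19 from 29251828 to 29313080, plus strand.

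STAT dimers bind a short palindrome, TTCNNNGAA, and the promoters of 2 members hold it. Promoters were RefSeq sequences on GRCm38.p6, from 250 bases before to 50 bases after each annotated start. The motif reads the same on both strands, and no other motif was searched. It occurred at least once in 2726 of 32851 such promoters (8.3%) and at least 2 times in 150 (0.457%). Entries existed for 8 members, 11 entries in all, and Cish and Socs3 held the motif. Of 58 other pathway genes with an entry, 7 held it, among them Prlr and 3 casein genes. The stretches below show the motif in capitals for Cish and Socs3 and for those 3 casein genes, which are the textbook STAT5 targets of this tissue.
Cish, chr9:107296654-107296683, plus strand: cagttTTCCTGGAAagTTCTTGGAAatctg
Socs3, chr11:117969501-117969530, minus strand: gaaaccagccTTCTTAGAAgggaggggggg
Csn2, chr5:87699499-87699528, minus strand: tcacgtagacTTCTTGGAAttgaagggact
Csn1s1, chr5:87666098-87666127, plus strand: tttgtaacaaTTCTTAGAAtttatgtaaaa
Csn1s2a, chr5:87774460-87774489, plus strand: ttatagtgctTTCTTAGAAttacaatgact
In Cish the first copy begins at the RefSeq start itself and the second 11 bases further on. The Socs3 copy begins 154 bases before the start, that of Csn2 93 bases before, that of Csn1s1 100 bases before and that of Csn1s2a 20 bases after it. A match to these letters is a description of the sequence, and binding was not measured here.

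Library totals ran from 3098425 to 7246443 counts, at which 3 counts correspond to 0.378 to 0.976 CPM (counts relative to the TMM-adjusted library total, with all 24 libraries scaled together). Id4 stood at 86.3, 13.2, 29.9 and 39.6 CPM in WT basal replicates 1 to 4 and at 10.3, 1.13, 11.1 and 0.942 CPM in KO basal ones, so the groups did not overlap, and no luminal library exceeded 1.41 CPM. The edgeR log2 fold change of Id4 in basal cells was -2.80 (SE 0.87, adjusted p = 0.998), which does not pass over all genes. The sorted populations carried their own markers: 5 basal markers summed to at least 5974 CPM in basal libraries and at most 171 CPM in luminal ones. A pair of basal libraries stood apart. WT basal replicate 2 held 4354 CPM of 5 luminal progenitor markers, against 149 to 412 CPM in the other WT basal libraries. Of this sum, 3804 CPM was the casein Csn3. Elf5 (290 CPM) and Itgb3 (164 CPM) were also highest in that library. Kit (79.9 CPM) was near WT basal replicate 3 (64.0 CPM), and Aldh1a3 (16.7 CPM) was below it (19.0 CPM). KO basal replicate 3 held 198 CPM of 5 endothelial markers, 134 CPM of it Cdh5, against at most 45.4 CPM in the other KO basal libraries. WT basal replicate 2 also held 131 CPM of 5 immune markers (Lyz2 67.0, Cd3e 45.2 and Ptprc 3.73 CPM), against 8.12 to 31.2 CPM in the other 7 basal libraries. Ptprc was at 0 in all 4 KO basal libraries. The 5 adipocyte markers summed to at most 24.7 CPM in basal libraries, where Fabp4 reached 24.4 CPM and Adipoq and Cidec were at 0 in all 8. In all comparisons, fewer cells of a type in a sorted pool and less RNA per cell cannot be told apart.

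Socs3, the inhibitor of gp130-type cytokine receptors, was lowest in LP cells and highest on average in basal cells. WT basal libraries held 753, 441, 263 and 315 CPM in replicates 1 to 4. WT LP libraries held 59.7, 40.3, 19.996 and 38.8 CPM, all below every basal library. WT ML libraries lay between, at 297, 238, 104 and 103 CPM, above all LP libraries and overlapping the lower basal ones. The log2 difference of basal over LP cells was 3.49 (SE 0.45, 95% interval 2.53 to 4.45, edgeR adjusted p = 5.95e-05), about 11.2-fold. LP cells lay 2.22 below ML cells on the log2 scale (-2.22, SE 0.43, edgeR adjusted p = 0.00279). The difference of basal over ML cells was 1.27 (SE 0.41, edgeR adjusted p = 0.0351) and rested on few libraries. Leaving out WT basal replicate 1 gave 0.88 with an edgeR adjusted p of 0.129, leaving out basal replicate 2 gave 0.0523, ML replicate 3 gave 0.102 and ML replicate 4 gave 0.111.

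The means kept this order in knockout cells, where basal and ML libraries again overlapped. Socs3 stood at 705, 301, 658 and 730.1 CPM in KO basal replicates 1 to 4, at 72.5, 42.0, 32.4 and 33.4 CPM in KO LP cells and at 329, 141, 109 and 155 CPM in KO ML cells. KO basal cells exceeded KO LP cells by 3.78 on the log2 scale (SE 0.41, edgeR adjusted p = 1.03e-05) and KO ML cells by 1.78 (SE 0.38, edgeR adjusted p = 0.00274). The log2 difference of KO LP against KO ML cells was -1.9996 (SE 0.38, edgeR adjusted p = 0.00463). Without the basal libraries that stood apart, the Socs3 difference of basal over LP cells was 3.48 in WT (edgeR adjusted p = 1.53e-04) and 3.67 in KO (3.08e-05).

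The sum of a list of transcripts known to be induced by tissue dissociation was also lowest on average in LP cells among WT groups. Single genes differed. WT means of Egr1 (1221.5 CPM in ML, 1790 in LP), Dusp1 (264 and 490) and Ier2 (22.2 and 25.1) were lowest in ML cells. That of Atf3 was lowest in basal cells (413 CPM, 536 in LP). The 10 such genes listed summed to 7019 to 13358 CPM in WT basal, 3236 to 7113 CPM in WT LP and 8039 to 8553 CPM in WT ML libraries. In KO cells the sums were 10091 to 13853, 4982 to 9070 and 6396 to 9457 CPM. Within groups the order of replicates was shared only in part. Socs3 was highest in replicate 1 in 5 of the 6 groups, the sum of these genes in 3, and single genes of the list in 6 (Fos), 3 (Egr1) and 2 (Junb). The part of dissociation in the Socs3 differences was not tested.

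**Figure D1:**
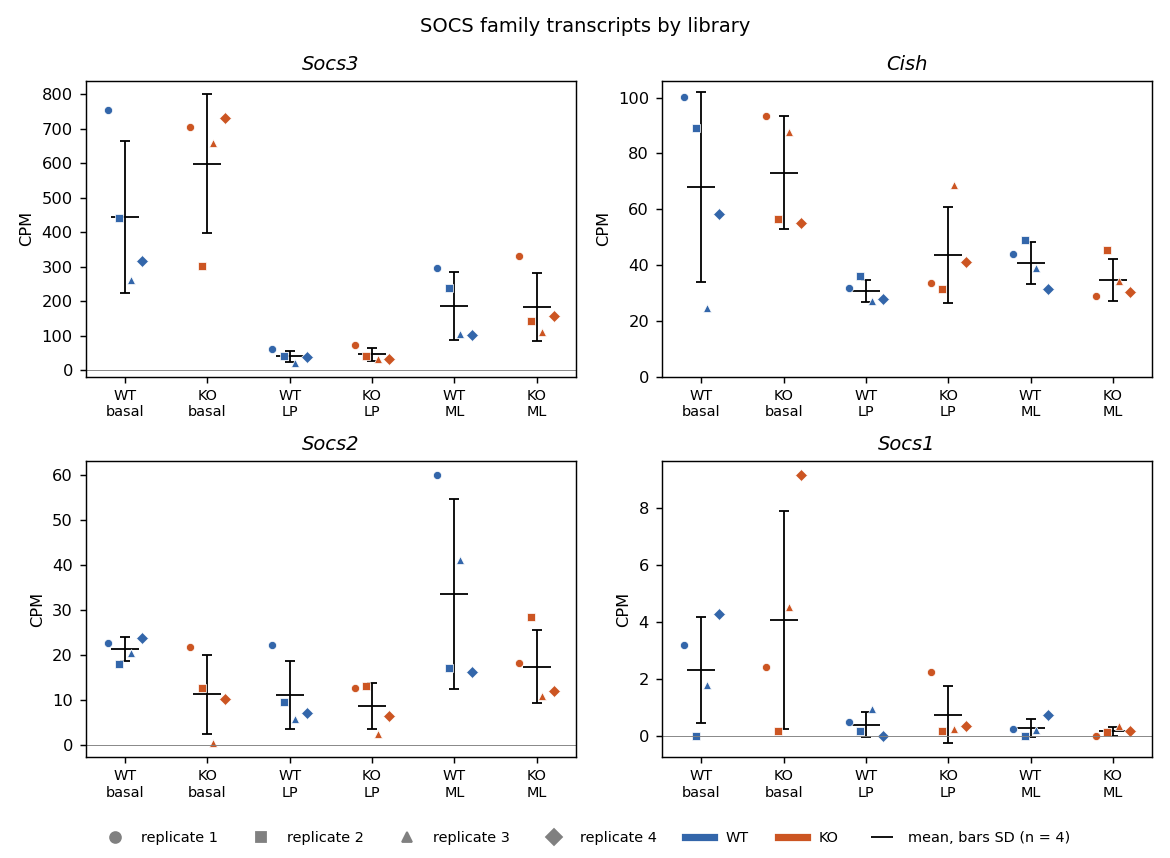
CPM of Socs3, Cish, Socs2 and Socs1 (vertical axes, linear) in each of the 24 libraries by genotype and population. Points are libraries, with one symbol per replicate number, long bars are means and whiskers SD (n = 4). Socs3 separates every basal library (263 CPM or more) from every LP library (at most 72.5 CPM) in both genotypes, while Socs1 stays under 10 CPM everywhere.

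Cish, a direct STAT5 target that competes for the activated receptor, spanned a narrower range. It stood at 100.2, 89.2, 24.4 and 58.2 CPM in WT basal replicates 1 to 4, so replicate 3 fell below every WT LP library. WT LP cells held 31.6, 36.0, 27.2 and 27.8 CPM and WT ML cells 43.9, 48.8, 38.8 and 31.4 CPM. The basal over LP difference passed at a log2 value of 1.17 (SE 0.36, edgeR adjusted p = 0.0359), and the call was lost under 10 of 17 alternatives. Without WT basal replicate 2, which stood apart, it was 0.99 with an edgeR adjusted p of 0.0598. Without basal replicate 1 it was 0.92 (0.112), and leaving out any single LP library also ended the call. In KO cells Cish stood at 93.3, 56.4, 87.8 and 54.9 CPM in basal, 33.5, 31.3, 68.6 and 40.9 CPM in LP and 28.7, 45.5, 34.4 and 30.3 CPM in ML libraries. All 4 KO basal libraries lay above all 4 KO ML libraries, and that log2 difference was 1.15 (SE 0.35, edgeR adjusted p = 0.0280). It too was lost without KO basal replicate 3 (0.99, edgeR adjusted p = 0.0553), without basal replicate 1 (1.03, 0.0676) and without ML replicate 1, 3 or 4 (0.0603 to 0.0913).

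Cish can be set beside a casein in LP libraries. Csn2, the beta-casein transcript whose motif is printed above, ran from 902 to 30999 CPM in the 4 WT LP libraries, a 34.4-fold span with replicate 2 highest. Cish there spanned 1.32-fold and was highest in the same replicate, at 36.0 CPM. In KO LP libraries Csn2 ran from 787 to 6273 CPM, with replicate 2 again highest, and Cish spanned 2.19-fold with replicate 3 highest. Another casein, Csn3, varied less. It ran from 4095 to 14358 CPM in WT LP libraries, highest in replicate 2, and from 4818 to 10029 CPM in KO ones, highest in replicate 4. Socs2 spanned 3.86-fold in WT LP libraries, highest in replicate 1, and 5.53-fold in KO ones, highest in replicate 2. These spans are descriptions of 4 libraries each and were not tested.

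Socs2, the inhibitor of growth hormone receptor signalling and another STAT5 target, varied widely between libraries of most groups. WT ML libraries held 60.1, 17.1, 41.0 and 16.2 CPM, WT LP libraries 22.3, 9.54, 5.78 and 7.12 CPM and WT basal libraries 22.8, 17.9, 20.5 and 23.9 CPM. ML and LP libraries overlapped, since LP replicate 1 exceeded ML replicates 2 and 4. The log2 difference of LP against ML was -1.57 (SE 0.50, 95% interval -2.63 to -0.51) with an edgeR adjusted p of 0.0530, just outside the threshold. Alternatives fell on both sides: 7 of 16 passed, among them DESeq2 (adjusted p = 0.0146), and leaving out ML replicate 1 gave -1.13 with an edgeR adjusted p of 0.222. KO libraries held 21.7, 12.6, 0.325 and 10.1 CPM in basal, 12.6, 13.1, 2.37 and 6.50 CPM in LP and 18.2, 28.5, 10.9 and 12.0 CPM in ML cells. The 0.325 CPM is a single count in KO basal replicate 3, a library that stood apart.

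Socs1, the inhibitor best known from interferon signalling, was close to the detection limit. WT basal libraries held 22, 0, 6 and 26 counts and KO basal libraries 15, 1, 14 and 39 counts. No luminal library exceeded 12 counts, and 7 of 8 ML libraries had 2 or fewer. Socs1 did not pass the expression filter in the WT comparisons or in the KO comparisons within LP and ML cells. Among KO populations it was called higher in basal than in ML cells (edgeR adjusted p = 0.0233). No fold is given, since the ML libraries held 0, 1, 2 and 1 counts, and KO basal replicate 2 was at that level too. The call held in 10 of 17 alternatives and in 4 of 8 fits with a single library left out. Leaving out KO basal replicate 4 gave an edgeR adjusted p of 0.0717, and the highest of these 8 fits was 0.078.

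Stat3 was the most abundant member by CPM per kilobase of transcript in every group but KO basal, where Socs3 led. In WT basal cells Stat3 stood at 181 ± 34.2 and Socs3 at 174 ± 86.2 CPM per kb (SD, n = 4), within each other's spread. Ghr (28.7 ± 14.4), Cish (24.6 ± 12.3) and Stat5a (24.4 ± 4.98) followed and did not differ beyond their spread, then Socs2 (10.0 ± 1.25), Jak2 (9.99 ± 3.56), Stat5b (4.28 ± 2.94) and Socs1 (1.91 ± 1.52). In WT LP cells the gap was wide: Stat3 at 171 ± 17.9 CPM per kb was followed by Stat5a at 22.4 ± 2.33, Ghr at 19.2 ± 4.39 and Socs3 at 15.6 ± 6.36, the last 3 within each other's spread. WT ML cells ranked Stat3 (94.3 ± 10.5) and Socs3 (72.7 ± 38.4) first, then Stat5a (27.3 ± 16.1) and Jak2 (24.8 ± 5.71), with Socs2, Ghr and Cish between 14.7 and 15.9 CPM per kb.

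WT mature luminal cells carried less Stat3 than the other WT populations. Stat3 stood at 433, 522, 683 and 556 CPM in WT basal replicates 1 to 4, at 457, 489, 541 and 579 CPM in WT LP cells and at 239, 305, 291 and 306 CPM in WT ML cells. Every ML library lay below every basal and LP library, while basal and LP libraries overlapped throughout. The log2 difference was 0.96 for basal over ML (SE 0.19, edgeR adjusted p = 0.00165) and 0.86 for LP over ML (SE 0.19, edgeR adjusted p = 0.00730). Basal and LP cells differed by 0.10, with a 95% interval of -0.30 to 0.51. In KO cells the ML libraries (309.6, 312, 399 and 282 CPM) again lay below all basal ones (419, 476, 624 and 658 CPM) and all LP ones (437, 445, 579.7 and 529 CPM). The basal over ML difference in KO cells was 0.83 (SE 0.23, edgeR adjusted p = 0.0176) and was lost without KO basal replicate 4 (0.68, 0.0666), ML replicate 1 (0.81, 0.0533) or ML replicate 4 (0.75, 0.0693). The LP over ML difference was 0.64 (SE 0.23) and did not pass in KO cells (edgeR adjusted p = 0.138).

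Stat5a, the main STAT5 of the mammary gland, showed no population difference that passed. WT basal libraries held 89.3, 119, 96.3 and 73.1 CPM, WT LP libraries 88.3, 95.9, 74.2 and 87.3 CPM and WT ML libraries 197, 81.3, 56.3 and 87.7 CPM. All 3 groups overlapped, and a single ML library, replicate 1, held the highest value. The 95% interval of the log2 difference ran from -0.53 to 0.83 for basal against LP, from -0.82 to 0.54 for basal against ML and from -0.97 to 0.39 for LP against ML. KO basal libraries held 84.3, 114, 216 and 116 CPM, the highest in replicate 3, KO LP libraries 61.8, 84.7, 93.5 and 79.7 CPM and KO ML libraries 152, 94.1, 125 and 102 CPM. KO ML libraries all lay above KO LP libraries, yet that difference did not pass (log2 -0.53 for LP against ML, SE 0.31, edgeR adjusted p = 0.468).

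Stat5b was the less abundant copy per kilobase in every library. It stood at 30.9, 12.6, 5.73 and 13.3 CPM in WT basal, 39.8, 47.9, 22.6 and 16.6 CPM in WT LP and 32.7, 34.1, 18.3 and 28.3 CPM in WT ML replicates 1 to 4. In KO cells basal libraries held 11.4, 10.6, 3.90 and 6.59 CPM, all below the KO ML libraries at 28.4, 26.6, 22.0 and 26.0 CPM. KO LP libraries held 24.3, 33.1, 7.34 and 33.4 CPM. The KO basal against ML difference passed at -1.58 on the log2 scale (SE 0.52, edgeR adjusted p = 0.0416), but only 6 of 17 alternatives passed. Leaving out KO basal replicate 3 gave -1.41 (edgeR adjusted p = 0.0547), basal replicate 4 gave 0.0701 and any single ML library 0.0658 to 0.0914. In WT cells the corresponding value was -0.84 (SE 0.47, edgeR adjusted p = 0.219). As a share of both copies per kilobase, Stat5a made up 85.3% ± 9.07 in WT basal, 72.9% ± 8.10 in WT LP and 75.8% ± 6.68 in WT ML cells (SD, n = 4). The shares in KO cells were 92.7% ± 4.56, 75.7% ± 11.1 and 80.8% ± 3.57. None of 6 comparisons of this share passed a two-sided exact permutation test, with adjusted p-values of 0.3 to 0.686. Before adjustment, 4 against 4 libraries cannot give less than 0.0286, so no comparison could pass alone after adjustment over the 6. The test therefore does not show that the shares are alike.

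**Figure D2:**
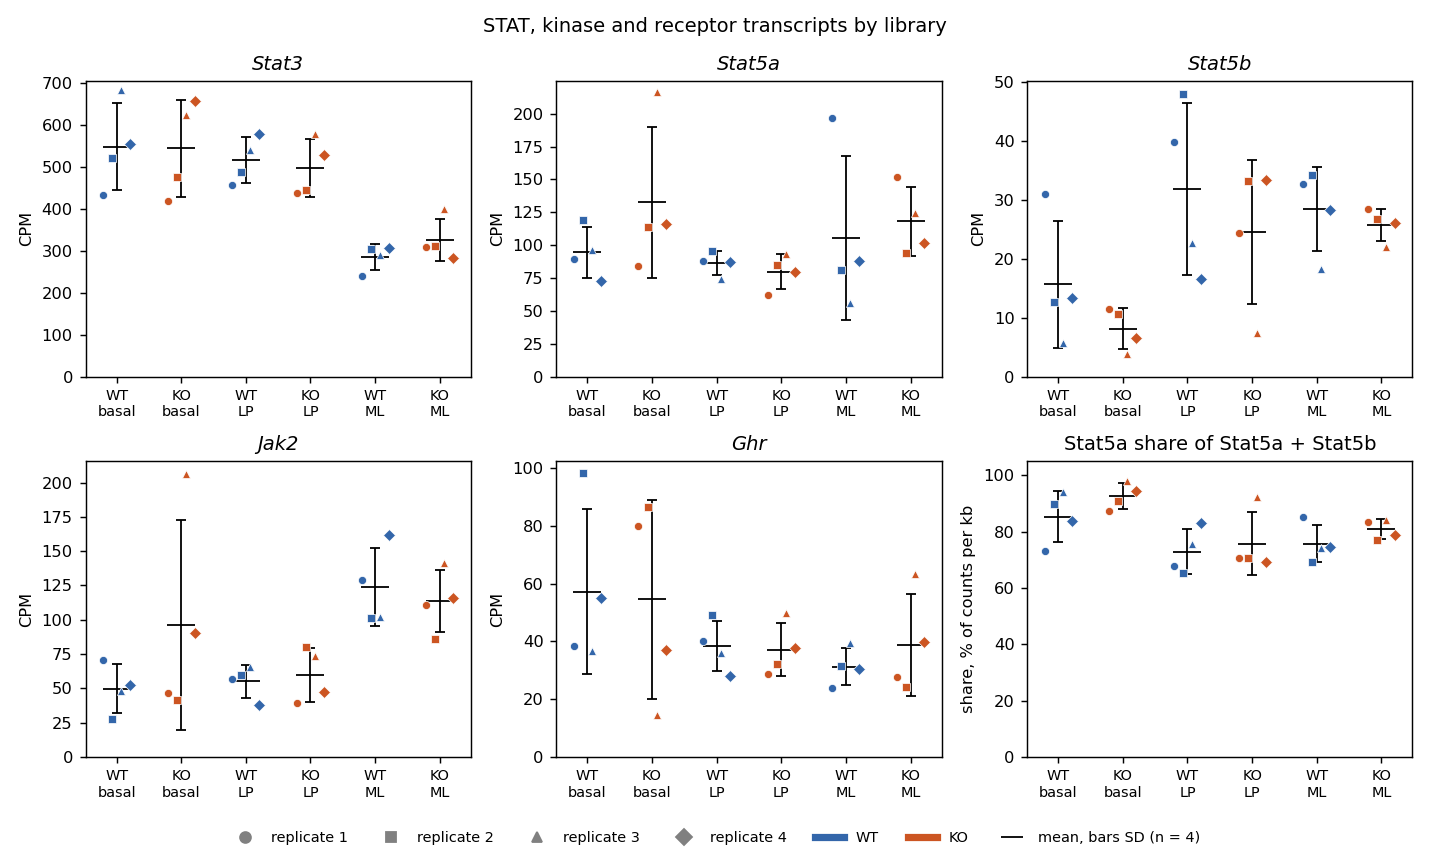
CPM of Stat3, Stat5a, Stat5b, Jak2 and Ghr and, in the last panel, the percent of Stat5a in the sum of Stat5a and Stat5b per kilobase (vertical axes, linear), by group. Points are libraries, long bars means and whiskers SD (n = 4). Among WT libraries, ML ones are lowest for Stat3 (239 to 306 CPM) and highest for Jak2 (102 to 162 CPM), and KO basal replicate 3 is highest for Jak2 at 206 CPM and Stat5a at 216 CPM.

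Jak2, the kinase shared by the prolactin and growth hormone receptors, showed the opposite order to Stat3 in WT cells. WT ML libraries held 129, 102, 102 and 162 CPM, all above the WT basal libraries (70.9, 27.7, 48.0 and 52.7 CPM) and the WT LP libraries (56.4, 59.7, 65.8 and 37.8 CPM). The log2 difference was -1.29 for basal against ML (SE 0.29, edgeR adjusted p = 0.00385) and -1.16 for LP against ML (SE 0.29, edgeR adjusted p = 0.0142). The LP value lost its call without LP replicate 4 (-1.02, edgeR adjusted p = 0.0529). KO ML libraries held 111, 85.8, 141 and 116 CPM and KO LP libraries 39.0, 79.9, 73.4 and 47.4 CPM, which did not overlap, but the difference did not pass (-0.89, SE 0.44, edgeR adjusted p = 0.350). KO basal libraries held 46.6, 41.7, 206 and 89.9 CPM, and replicate 3 exceeded every ML library. With it, the Jak2 log2 difference of KO basal against KO ML cells was -0.14 (SE 0.44), and without it -0.91 (edgeR adjusted p = 0.0760). The difference between these WT and KO contrasts was 1.06 (SE 0.54, edgeR adjusted p = 0.741).

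Ghr, the growth hormone receptor, showed no population difference that passed. WT basal libraries held 38.4, 98.2, 36.8 and 55.2 CPM, WT LP libraries 40.1, 49.1, 35.9 and 28.2 CPM and WT ML libraries 23.9, 31.4, 39.4 and 30.4 CPM. The highest value belonged to WT basal replicate 2, a library that stood apart. The log2 difference of basal over ML was 0.90 (SE 0.34, edgeR adjusted p = 0.0633) and did not pass. KO basal libraries ran from 14.6 CPM in replicate 3 to 86.5 CPM in replicate 2, KO LP libraries from 28.8 to 49.7 CPM and KO ML libraries from 24.2 to 63.5 CPM.

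Prlr followed Jak2 in being highest in ML cells, on a far larger scale. Its level averaged 6276 ± 775 CPM in WT ML, 504 ± 82.8 in WT LP and 269 ± 145 in WT basal libraries (SD over 4 libraries). The edgeR log2 difference was -3.63 for LP against ML (SE 0.35, adjusted p = 1.24e-05) and -4.52 for basal against ML (SE 0.36, adjusted p = 5.60e-07).

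Over the whole set, 2 of 8 tested members (25%) passed between WT basal and LP cells, where 15.8% of all tested genes did. Between WT basal and ML cells 3 of 8 (37.5%) passed, against 24.6% of all genes, and 3 of 8 between WT LP and ML cells, against 11.5%. In KO cells 1 of 9 (11.1%) passed between basal and LP cells, against 14.8%, 5 of 9 (55.6%) between basal and ML cells, against 19.4%, and 1 of 9 between LP and ML cells, against 5.67%. The median log2 difference over the tested members was 0.37 for WT basal against LP, 0.31 for WT basal against ML and -0.35 for WT LP against ML, beside medians of all tested genes that scaling holds near 0. Libraries of the 2 groups did not overlap for 1, 2 and 3 members in these WT comparisons, where 19%, 26.1% and 22.7% of genes did not overlap. The KO comparisons gave 1, 3 and 4 members, against 18.3%, 23.9% and 17% of genes. With 8 or 9 genes, a single gene moves such shares by 11.1 points or more.

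**Figure D3:**
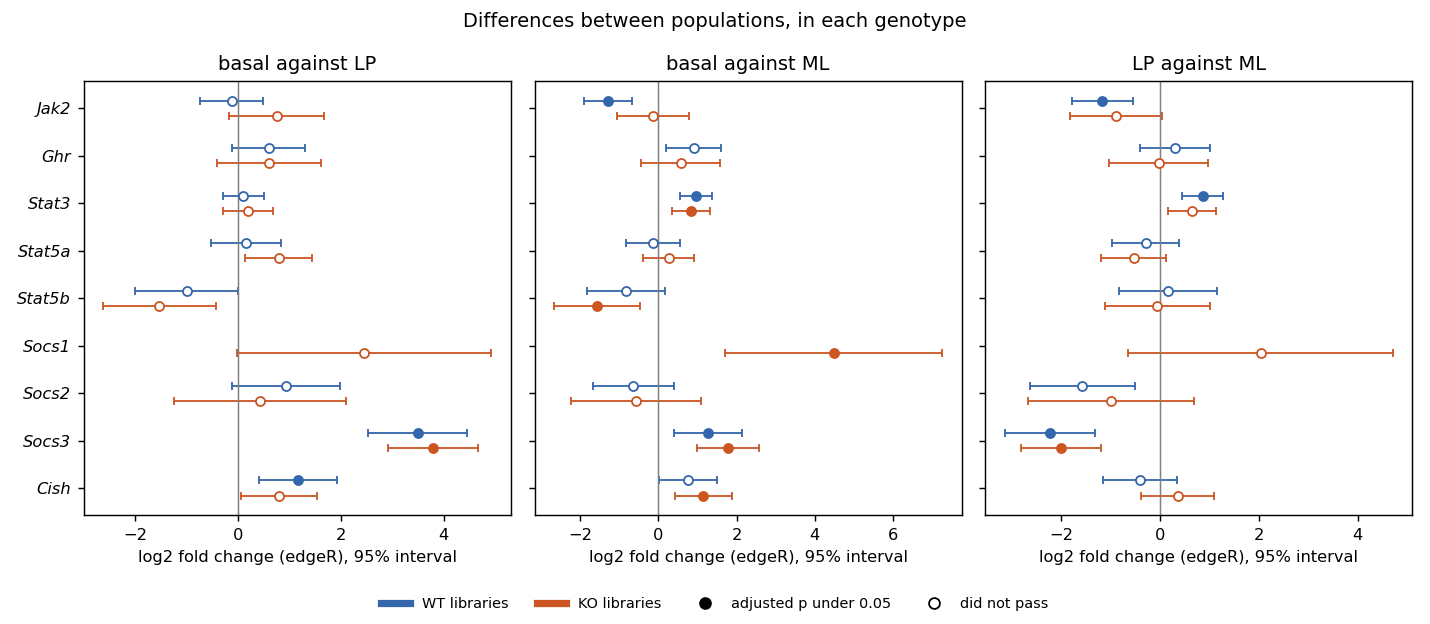
edgeR log2 differences between populations (horizontal axes) for each member, WT libraries in blue and KO libraries in orange, with 95% intervals. Filled circles passed at an adjusted p of 0.05. Socs3 is the only member filled in all 3 panels in both genotypes, and Stat5a, Socs2 and Ghr are filled in none.

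KO and WT mice were compared within each population, in its own 8 libraries. Luminal libraries of either genotype held at most 7 counts of Id4 (1.41 CPM). A loss of Id4 RNA could therefore not be seen in LP and ML cells, where the comparison is one of mouse genotype. No member passed: 0 of 9 in basal cells, where 0% of all genes passed, 0 of 8 in LP cells, where 0% passed, and 0 of 8 in ML cells, where 0.00851% passed. None of the members had non-overlapping KO and WT libraries in any population, against 2.39%, 2.61% and 2.63% of genes. None reached an unadjusted edgeR p of 0.05 either. Of all tested genes, 383 of 11307 did in basal, 439 of 11700 in LP and 455 of 11747 in ML cells. At such low shares, finding 0 among 8 or 9 members says little. With the replicate block, 393, 843 and 821 of all tested genes had an unadjusted edgeR p under 0.05 in basal, LP and ML cells. DESeq2 and voom called 0 members. The 1 gene called in ML cells was the heat shock gene Hspa1b, named after its value was seen, with a log2 difference of -1.46 (SE 0.19, edgeR adjusted p = 0.0450). That call was lost with the replicate block, with RLE scaling and without any single ML library, each of which gave 0 called genes.

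The intervals come from the fits without a replicate block and show what those fits could and could not resolve. For Stat3 the KO over WT log2 difference was 0.02 in basal (95% interval -0.55 to 0.58), -0.05 in LP (-0.48 to 0.38) and 0.21 in ML cells (-0.19 to 0.61). Stat5a gave 0.52 (-0.25 to 1.29), -0.11 (-0.56 to 0.34) and 0.17 (-0.57 to 0.91) in the same order. Socs3 gave 0.45 (-0.30 to 1.21), 0.18 (-0.57 to 0.93) and -0.01 (-0.92 to 0.90). Cish gave 0.11 (-0.82 to 1.05), 0.51 (-0.11 to 1.14) and -0.22 (-0.72 to 0.29). The widest intervals belonged to the scarce transcripts: in basal cells Socs1 spanned -1.998 to 3.72, Socs2 -2.73 to 0.88 and Stat5b -2.65 to 0.80.

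Jak2 and Socs2 came nearest to the unadjusted threshold. Jak2 in basal cells stood at 1.02 (SE 0.51, edgeR adjusted p = 0.998), and the 206 CPM of KO basal replicate 3 carried it: without that library the value was 0.27, and without both libraries that stood apart 0.09. The same library held the endothelial markers given above, and their part in the Jak2 value was not tested. Socs2 in ML cells stood at -0.93 (SE 0.45, 95% interval -1.92 to 0.05, edgeR adjusted p = 0.998). Its KO values, 10.9 to 28.5 CPM, overlapped the WT values, 16.2 to 60.1 CPM. The sign was negative in basal and LP cells as well (-0.93, SE 0.85, and -0.37, SE 0.57), and neither passed. In the tests of whether the knockout effect differed between populations, 0 of 27 member tests passed, where 0% of all genes passed in each, and none reached an unadjusted edgeR p of 0.05. The intervals were wide, such as -0.04 to 2.16 for Jak2 between basal and ML cells, so differences of that size were not resolved.

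**Figure D4:**
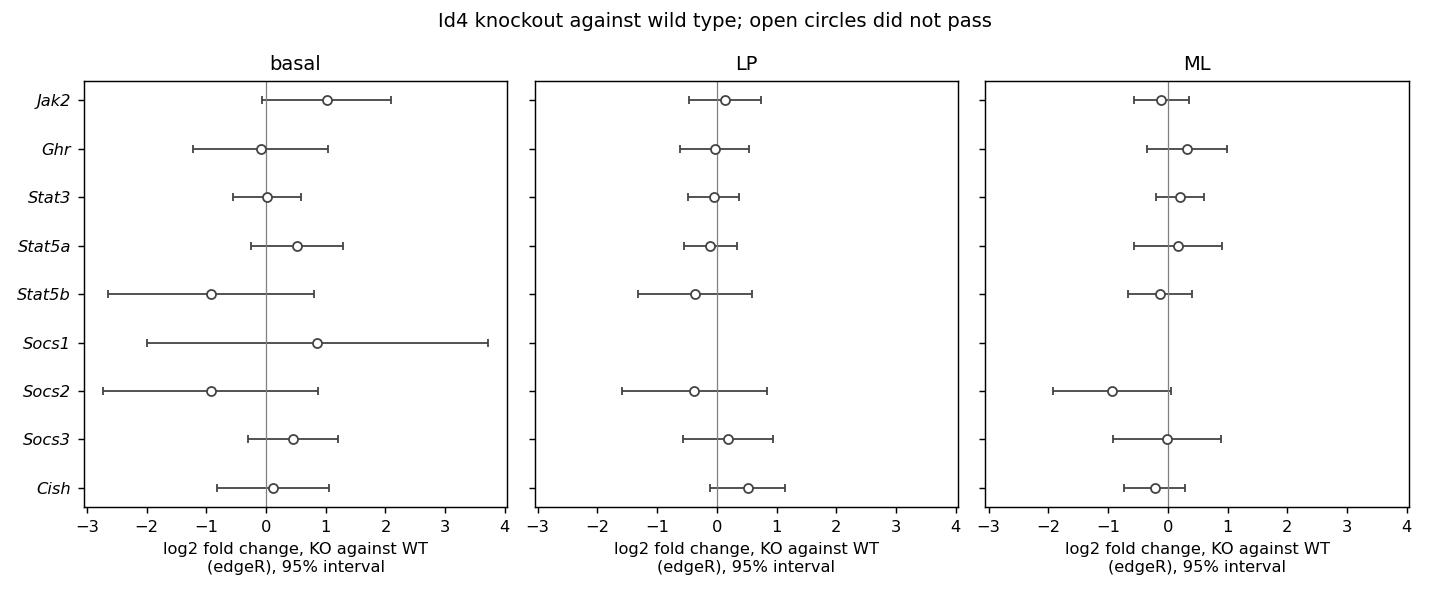
edgeR log2 differences of KO over WT (horizontal axes) for each member in basal, LP and ML cells, with 95% intervals. All circles are open, since none passed, and Socs1 is missing from LP and ML because it did not pass the expression filter. In basal cells Jak2 sits at 1.02 and Socs2 at -0.93, and both intervals include 0.

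A further 71 genes of the pathway were listed by role. Between WT basal and LP cells 68 were tested, 11 were higher in basal cells and 6 lower, where 9.12% of all genes were higher and 6.68% lower. Of 14 receptors 5 were higher: Lifr, the leukaemia inhibitory factor receptor (log2 3.20, SE 0.31, edgeR adjusted p = 4.08e-06), Lepr (3.49), Egfr (1.34), Osmr (1.02) and Il6st, which encodes gp130 (0.90). The Lepr value rests on few counts, 2 to 93 in WT basal and at most 6 in WT LP libraries. Its WT basal replicates 1 to 4 held 3.77, 18.3, 3.02 and 0.331 CPM, highest in replicate 2, which stood apart. Replicate 4 overlapped the WT LP libraries, which ran from 0 to 1.06 CPM. Cav1, a membrane protein reported to restrain JAK2, was 3.49 higher (SE 0.39, edgeR adjusted p = 1.52e-05), and Pias3 and Cblb were the other inhibitors that were higher. Those lower in basal cells were Erbb4 (-2.55), Jak3 (-3.00), Pias1 (-1.14), Ccnd1 (-1.62), Lif (-2.29) and Lalba (-3.92). Of 14 STAT5 response genes 0 were higher and 2 lower, with a median log2 difference of -1.17. Among WT basal libraries the caseins Csn2, Csn1s1, Csn1s2a and Csn3 were each highest in replicate 2. Csn2 stood at 22.0, 6531, 86.3 and 91.7 CPM in WT basal replicates 1 to 4 and at 902 to 30999 CPM in WT LP libraries. With such a spread, the count of 2 does not show that the other response genes were alike. Without WT basal replicate 2, which stood apart, 9 list genes were higher and 15 lower. This alternative was added after seeing the data.

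Between WT basal and ML cells 16 of 68 list genes were higher in basal cells and 5 lower, against 14% and 10.6% of all genes. The lower ones were the receptors Prlr and Il13ra1 (-1.97), the kinase Jak3 (-2.73), the phosphatase Ptpn1 (-0.99) and Tnfsf11, the RANK ligand induced by progesterone and prolactin (-5.10). Of 10 STAT3 response genes 4 were higher in basal cells and 0 lower, led by Myc (3.08, SE 0.26, edgeR adjusted p = 9.68e-07) and with Cebpb (2.16) and Cebpd (1.70). Without WT basal replicate 2 the counts were 17 and 8. Between WT LP and ML cells 12 of 68 were higher in LP and 8 lower, against 6.62% and 4.89% of all genes. With roles of 3 to 15 tested genes, the counts by role are descriptions. Of the 10 STAT3 response genes 5 were higher, with Igfbp5 at 3.82 (SE 0.30, edgeR adjusted p = 5.62e-06), and Lif, a ligand upstream of STAT3, at 2.95. Of 14 STAT5 response genes 3 were higher in LP cells, Pim1 (2.46), Lalba (5.33) and Csn3 (4.98), and Tnfsf11 was lower (-6.79).

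Of 67 list genes tested in KO cells, 8 were higher and 8 lower in basal than in LP cells, against 8.12% and 6.69% of all genes. For basal against ML they were 17 and 5, against 11.9% and 7.51%, and for LP against ML 11 and 4, against 4.08% and 1.59%. Against LP cells, KO basal cells were lower in Prlr (-2.01) and Erbb4 (-5.46), higher in Lifr (2.89) and Cav1 (2.79), and lower in 3 of 12 tested STAT5 response genes, Csn3 (-4.11), Lalba (-5.62) and Elf5 (-3.78). Of 10 STAT3 response genes 3 were higher (Junb, Myc and Fos) and 2 lower (Lif and Igfbp5). Junb and Fos also belong to the 10 dissociation genes described above, and the part of dissociation in their values was not tested. Medians over the tested list were 0.07, 0.64 and 0.46 in the 3 WT comparisons, beside medians of all genes near 0.

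Between KO and WT cells 0 of 62, 63 and 64 tested list genes passed in basal, LP and ML cells. The 2 with the smallest p in LP cells were Cav1 (log2 1.26, SE 0.34) and Prlr (0.82, SE 0.23), both with an edgeR adjusted p of 0.999. Prlr stood at 677 to 1203 CPM in KO and 427 to 611 CPM in WT LP libraries. These did not overlap, as for 2.61% of all genes. Other mature luminal markers were also higher on average in KO than in WT LP libraries. They were Pgr (69.2 and 23.1 CPM), Foxa1 (29.9 and 12.6), Esr1 (51.5 and 26.6) and Ly6a (52.7 and 23.9). The part of ML cells in the Prlr value was not tested. In basal cells they were Igfbp5 (-0.96, SE 0.36) and Gab2 (-3.05, SE 1.22), an adaptor whose WT basal values ran from 1.30 CPM to 67.0 CPM in replicate 2. In ML cells they were Myc (0.55, SE 0.20) and Osmr (0.79, SE 0.35). None of these values passed (edgeR adjusted p = 0.998 in basal and ML cells).

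The genes with the most similar pattern over the 24 libraries were ranked by Pearson r of log2 CPM (pseudocount 0.5) among 12467 named genes. For Socs3 they were Ifitm3 and Bdnf (both r = 0.94) and Fkbp9 (0.91). Their level order was that of Socs3, with Ifitm3 at 440 CPM in WT basal, 114 CPM in WT ML and 29.4 CPM in WT LP cells on average. Cish was closest to Tceal3 (0.82), Phyhipl (0.80) and Mef2c (0.78), all 3 at a mean of 1.15 CPM or lower in both WT luminal groups. Stat5a had weaker neighbours, Zfp213 (0.71), Ulk1 (0.67) and Yars (0.66). The points share libraries and population differences, so these values describe likeness only.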

How the data were processed

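The deposited table holds expected counts per gene, per the file headers and the values not normalized, and a gene length used only for levels per kilobase. Per the submitters' processing notes, cutadapt, STAR and RSEM were used with mm10. Versions and roles were not stated there. No source states that the kit kept strand. Expected counts were rounded. All 24007 genes entered, 25 without a symbol, and a filter (edgeR's filterByExpr, minimum count 10) came before each test. Tests were edgeR 4.0.16 quasi-likelihood F-tests (R 4.3.3, robust, TMM scaling, two-sided), with Benjamini-Hochberg adjustment over all tested genes at 0.05. KO was compared with WT in each population's 8 libraries, populations in the 12 libraries of a genotype, and differences of the KO effect in all 24. Standard errors and 95% intervals come from the same fits, and the scripts were checked on simulated counts. DESeq2 1.42.0 and voom (limma 3.58.1) were alternatives, with RLE scaling, no filter, pairs of replicates and leaving out libraries.

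Replicate numbers come from the titles, since the replicate tags of the KO ML samples differ from them. Same-numbered KO and WT samples deviated together in all 4 pairs in LP cells (r = 0.118 to 0.356) and ML cells (0.122 to 0.332). Only these comparisons exceeded the cutoff for pairing in every replicate. Basal KO and WT cells (0.0572 to 0.140) and pairs of populations fell short of it, though most of their values were positive. Between WT LP and WT ML cells r was 0.0882 to 0.303, where differently numbered libraries averaged -0.0683. Independence of same-numbered populations is therefore not shown, and the main tests used no replicate block. With the block, edgeR called 0 genes in LP and 0 in ML cells. The series' design text calls the replicates biological, each a pool of mice. Amplified cDNA from 0.5 to 2 ng of RNA carries no molecular identifiers, so limits from counts cover counting error only. Positions are from GENCODE M21, and promoters from RefSeq, which held no entry for Socs2. The members, the pathway list and the markers were chosen with earlier results of these data known. The text names all members, the 2 list genes with the smallest p in each WT and KO comparison, and the 3 genes most like Socs3, Cish and Stat5a. Other list genes are named where they passed or where their role is described.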

Additional observations from a re-analysis of the deposited data

Results flagged for a closer look

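In 2 of 54 groups of 4 libraries (9 members, 6 groups) a single library lay apart from the other 3 by Dixon's 95% criterion, where chance gives about 2.7. Socs3 in KO basal replicate 2 was the lowest of its group at 301 CPM, with the next at 658 CPM and the highest at 730.1 CPM. Socs1 in KO LP replicate 1 was the highest of its group at 2.26 CPM, or 12 counts, with the next at 0.351 CPM.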

How the results depend on the processing

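Of 251 alternatives of the 15 member differences that passed, 194 kept the call, 57 lost it and 0 turned sign. Within a genotype, basal comparisons hold only 1 library that stood apart. The fit without it enters all counts of alternatives both as a setting of its own and as a single library left out. Of 1647 alternatives of the 88 that did not pass, 23 passed and 149 turned sign while staying outside the threshold. The members called between WT basal and LP cells were 1 with replicates 1 and 2 only, with voom and without the basal library that stood apart. They were 1 to 2 with single libraries left out. Between WT basal and ML cells they were 0 with replicates 1 and 2 only and 2 to 5 with single libraries left out, and between WT LP and ML cells 1 and 2 to 4. In KO cells, basal against LP gave 2 with all 24 libraries, DESeq2, replicates 1 and 2 only and voom, and 1 to 2 with single libraries left out. KO basal against ML gave 3 without an expression filter and without the library that stood apart, 1 with either pair of replicates only, and 1 to 5 with single libraries left out. KO LP against ML gave 0 with replicates 1 and 2 only, 3 with voom and 1 with any single library left out. List genes lower in WT basal cells were 15 against LP and 8 against ML without the WT basal library that stood apart. Those lower against LP were also 12 with the replicate block, 13 with voom and 11 with replicates 3 and 4 only.

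Over all genes, replicates 1 and 2 only gave 347, 871 and 143 calls in the WT comparisons (2018, 3140 and 1470 with all libraries) and 837, 1246 and 17 in the KO ones (1883, 2463 and 721). Replicates 3 and 4 only gave 749, 1091 and 182 in KO cells. Voom gave 3067 for WT and 2158 for KO LP against ML, DESeq2 1182 for the latter, and single libraries left out 382 to 744. KO against WT gave 6, 8 and 8 genes with DESeq2 in basal, LP and ML cells, 13 with all 24 libraries and 30 without a filter in basal cells, 4 with replicates 3 and 4 in ML cells, and 0 or 1 with voom, RLE scaling or single libraries left out. Differences of the KO effect gave 29, 30 and 1 genes with DESeq2, up to 13 with a library left out and 0 to 3 otherwise.

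With the replicate block, members called were 2, 3 and 4 in the WT comparisons (2, 3 and 3 without it), since Socs2 of LP against ML passed (adjusted p = 0.0275). In KO cells they were 1, 4 and 1 (1, 5 and 1 without it), since Socs1 of basal against ML was lost (0.0602). No member passed between KO and WT with the block. Counts limit Socs1 and Socs2 most.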
